A study of Mus musculus with 2 samples.

Results

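Ccl19-positive fibroblasts were the 57 barcodes, of 33578 in both libraries, that carried the chemokine Ccl19 together with the fibroblast genes Dcn and Col1a1 or Col1a2. Library RP held 28 of its 18112 barcodes, and library 377P held 29 of its 15466. A barcode was taken as one of them where it had 200 genes or more and no more than 20% of its UMIs from mitochondrial genes (UMIs are unique molecular identifiers, each standing for 1 captured mRNA). It also had at least 3 UMIs of Dcn, at least 3 of Col1a1 and Col1a2 together, and at least 3 of Ccl19. It had fewer than 2 of Pi16, none of Pcsk2, Ptprc or Pecam1, and fewer than 10 of Krt5 and Krt14 together. The cells were thus chosen by the UMI counts of these genes, and their levels are given as a description only. The same terms without Ccl19 left a fibroblast gate of 1607 barcodes in RP and 714 in 377P. The 1459 and 609 of those with no Ccl19 UMI are called Ccl19-negative fibroblasts.

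Both libraries came from mouse maxillary periodontium, the tissue that holds the upper teeth in their sockets, and were made with a 10x Genomics 3' kit. The series is titled as a study of how periodontitis resolves in diabetes. The labels give the titles RP and 377P only. They do not say which animals, treatment or time either title stands for, and neither library is named as a control. There was 1 library for each title, so no difference has a replicate check, no test was made, and every 95% interval covers counting error only.

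Ccl19 and Cxcl13 are homeostatic chemokines. In lymph nodes, stromal cells make Ccl19 to draw T cells and dendritic cells through the receptor Ccr7, and follicular stroma makes Cxcl13 to draw B cells through Cxcr5. Fibroblasts of inflamed tissues can express the same chemokines where lymphocytes gather. Cxcl9 and Cxcl10 are chemokines induced by interferons and draw activated T cells through Cxcr3.

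The promoters of 3 lymphocyte-attracting chemokine genes are shown because their RNAs were all higher in the Ccl19-positive than in the Ccl19-negative cells (values below). Each sequence is the 250 bases before the RefSeq gene start (GRCm38.p6), 5′ to 3′ on the gene's strand. Capitals mark matches, on either strand, to GAAANNGAAA, the core of interferon-stimulated response elements, or to GGAATTTCC, a form of the NF-kappaB site. Cxcl13 is at chr5:95956689-95956938 (plus strand), Cxcl9 at chr5:92328080-92328329 (minus strand) and Cxcl10 at chr5:92348890-92349139 (minus strand).
Cxcl13: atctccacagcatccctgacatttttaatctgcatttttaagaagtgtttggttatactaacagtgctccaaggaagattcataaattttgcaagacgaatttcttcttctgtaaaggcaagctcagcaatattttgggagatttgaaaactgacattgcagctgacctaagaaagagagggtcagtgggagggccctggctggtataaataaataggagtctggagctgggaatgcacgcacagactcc
Cxcl9: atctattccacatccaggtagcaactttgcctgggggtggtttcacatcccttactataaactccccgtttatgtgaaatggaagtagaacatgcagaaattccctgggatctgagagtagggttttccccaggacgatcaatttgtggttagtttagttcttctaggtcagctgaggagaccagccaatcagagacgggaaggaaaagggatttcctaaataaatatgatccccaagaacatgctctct
Cxcl10: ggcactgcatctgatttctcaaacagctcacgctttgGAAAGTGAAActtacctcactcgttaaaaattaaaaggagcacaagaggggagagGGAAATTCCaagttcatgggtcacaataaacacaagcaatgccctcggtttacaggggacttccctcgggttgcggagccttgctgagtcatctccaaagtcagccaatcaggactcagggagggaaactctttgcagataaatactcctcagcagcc
The Cxcl10 window held 1 match to each motif, the second of them on the opposite strand, and the motifs do not overlap there. The Cxcl13 and Cxcl9 windows held no match to either motif, nor to TTCNNNGAA, the core of the Stat site. Among 32851 promoter windows of the same length, 2.98% held GAAANNGAAA, 0.286% held GGAATTTCC and 7.02% held TTCNNNGAA. The window before the RefSeq start of Ccl19 lies for 212 of its 250 bases in an exon of the GENCODE annotation and is not shown.

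Ccl19-positive cells were a small share of the fibroblast gate in both libraries. They made up 1.74% of the gate in RP (exact binomial interval 1.16 to 2.51) and 4.06% in 377P (2.74 to 5.78). Of all barcodes that passed the first filters they were 0.162% in RP and 0.189% in 377P. The share of the gate also follows the terms that define it. Of the barcodes that met the Dcn and collagen terms, 23.6% of 5356 in RP and 55.4% of 4932 in 377P failed the keratin term, and their median of Krt5 and Krt14 UMIs was 4 in RP and 11 in 377P. Without the keratin term the shares were 1.33% in RP and 2.97% in 377P, and after thinning every gate cell to 3000 UMIs they were 0.751% in RP and 2.07% in 377P. The part of keratin RNA in the difference between the libraries was not tested.

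Most Ccl19-positive cells sat close to the threshold. In RP the lowest, median and highest Ccl19 counts per cell were 3, 3 and 23 UMIs, and 15 of 28 cells had exactly 3. In 377P they were 3, 4 and 42 UMIs, and 11 of 29 cells had exactly 3. Just outside, 18 gate cells in RP and 16 in 377P had 2 UMIs, and 102 and 60 had 1. Counts of 10 or more were found in 4 cells of RP and 8 of 377P, and those 8 held 170 of the 259 Ccl19 UMIs of the class in 377P. The high counts were thus in few cells of RP and in more cells of 377P.

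The class held a minor part of the libraries' Ccl19 RNA. Of the Ccl19 UMIs in barcodes that passed the first filters, 12.1% of 1244 in RP and 13.2% of 1958 in 377P were in Ccl19-positive fibroblasts. Fibroblasts that failed only on Pi16 or Pcsk2 held 25.3% in RP and 11.4% in 377P. The other cells of the gate held 11.1% in RP and 4.70% in 377P. The remaining barcodes were counted each in the first class it met. Those with a UMI of the leukocyte gene Ptprc held 5.87% in RP and 26.3% in 377P. Those with a UMI of the endothelial gene Pecam1 held 12.5% in RP and 10.7% in 377P. Those with 10 or more keratin UMIs held 7.07% in RP and 27.6% in 377P. The rest, all under the Dcn or collagen minimum, held 26.0% in RP and 6.13% in 377P. In 377P the Ptprc and the keratin barcodes thus each held more of the Ccl19 UMIs than the class itself, spread over 6524 and 3055 barcodes. Pi16 marks adventitial-type fibroblasts shared by many tissues, and Pcsk2 encodes a prohormone convertase. By stricter gates, at least 1 Ccl19 UMI was found in 1.78% of 505 keratinocytes and 0.49% of 406 leukocytes in RP, and in 1.94% of 206 keratinocytes and 1.13% of 533 leukocytes in 377P. Their median depths were 4057 to 7093 UMIs, against 5691.5 in the Ccl19-positive cells of RP and 7625 in those of 377P.

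The libraries are described here only as far as they touch these cells. The median depth of passing barcodes was 4398 UMIs in RP and 5352 in 377P. The Ccl19-positive cells summed to 185424 UMIs in RP and 217865 in 377P, against 8128038 and 3234350 UMIs in the Ccl19-negative cells. The libraries shared 82 barcode sequences, none of them a Ccl19-positive cell. Scrublet called no Ccl19-positive cell a doublet. Muc5b, a salivary mucin of gland cells, had UMIs in all 28 Ccl19-positive cells of RP and all 29 of 377P. Whether this RNA came from gland cells was not tested. Levels below are UMIs summed over a class and given per 1000000 UMIs of that class (CPM), and a fold is a ratio of CPM.

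The name lymphoid-type stroma was met in part. Cxcl13 stood at 70.1 CPM in the Ccl19-positive cells of RP and at 12.1 CPM in the Ccl19-negative cells, a fold of 5.81 (2.99 to 10.4). The levels in 377P were 468 CPM in Ccl19-positive and 14.5 CPM in Ccl19-negative cells, a fold of 32.2 (22.6 to 46.5). Cxcl13 was found in 6 of 28 cells in RP, with 1 to 4 UMIs each, and in 7 of 29 cells in 377P, where 3 cells held 59, 20 and 17 UMIs. Thus a minority of the cells carried Cxcl13 and 1 cell held 57.8% of its UMIs in 377P, while 1.78% of the Ccl19-negative cells in RP and 2.3% in 377P had any.

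Sfrp2, a secreted Wnt modulator, was at 965 CPM in Ccl19-positive and 567 CPM in Ccl19-negative cells of RP, and at 1079 and 759 CPM in those of 377P. The folds were 1.70 (1.46 to 1.98) in RP and 1.42 (1.24 to 1.62) in 377P. Igfbp2, which binds insulin-like growth factors, had a fold of 2.05 (1.32 to 3.03) in RP and of 1.0 (0.77 to 1.29) in 377P. Of the 3 markers that the rule did not use, Cxcl13 was thus past 1.5-fold in both libraries and Sfrp2 and Igfbp2 in RP alone. Its UMIs in RP were too few for Cxcl13 to count as measured in both.

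Genes known from lymph node reticular cells were mixed. Of 25 listed, 8 were measured, by the filter on low counts given below, and 4 of the 8 were past 1.5-fold higher in both libraries with none lower. Vcam1, an adhesion molecule for lymphocytes, was at 291 CPM in Ccl19-positive and 94.5 CPM in Ccl19-negative cells of RP, a fold of 3.08 (2.29 to 4.06). In 377P the Ccl19-positive cells had 459 CPM and the Ccl19-negative cells 78.8 CPM, a fold of 5.82 (4.57 to 7.36). It was found in 17 of 28 cells in RP and 22 of 29 in 377P. Il33, an alarmin cytokine, had folds of 1.85 (1.25 to 2.65) in RP and 4.97 (3.89 to 6.29) in 377P, and Fgl2, a secreted fibrinogen-like protein, 4.65 (3.70 to 5.78) in RP and 2.58 (1.97 to 3.35) in 377P. These 3 and Cxcl12, described below, were the 4, and Vcam1, Il33 and Fgl2 passed the filter only through their level in the Ccl19-positive cells. Pdpn, which encodes podoplanin, was past 1.5-fold in RP alone, at 1.69 in RP and 1.21 in 377P. Inmt, a methyltransferase gene, had 0.634 in RP and 1.04 in 377P, and Icam1, an adhesion molecule, 1.46 in RP and 0.917 in 377P. Grem1, a BMP antagonist, was not measured, with 1 UMI in the Ccl19-positive cells of RP and 2 in those of 377P, against 29.2 CPM and 31.2 CPM in the Ccl19-negative cells.

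Tnfsf13b, which encodes the B cell survival factor BAFF, had 6 UMIs in 5 cells of RP and 12 UMIs in 7 cells of 377P. Its folds were 6.26 (2.18 to 14.8) in RP and 12.7 (5.38 to 29.6) in 377P, on few counts. Cells with a UMI were 17.9% of the Ccl19-positive cells in RP and 24.1% in 377P, against 2.54% and 1.81% of the Ccl19-negative cells and 0.20% and 1.46% of the keratinocytes. Other reticular cell genes were at or near the floor of detection. Ccl21a, whose near-identical gene copies make its count uncertain, was found in 14.3% of Ccl19-positive cells in RP and 13.8% in 377P, as 4 UMIs in each. It was found in 12.9% and 11.7% of keratinocytes and in 8.50% and 6.57% of Ccl19-negative cells. Whether its UMIs came from other cells was not tested. Il7, a T cell survival cytokine, had 1 UMI in RP and 5 in 377P, and Bst1 had 0 and 5. Madcam1 had none in either library, and Tnfsf11, which encodes RANKL, had 0 in RP and 6 in 377P. For these reasons the cells are called Ccl19-positive fibroblasts and not lymphoid stroma. The word fibroblast stands only for the Dcn and collagen terms of the rule. In Rgs5-led clusters, described below, lay 6 of the cells in RP and 2 in 377P. They had no Pdgfra UMI, and Acta2 at 4673 CPM in RP and 5681 CPM in 377P. A further 2 cells of 377P lay in a cluster led by gland genes. Whether these cells are fibroblasts was not tested.

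**Figure D1:**
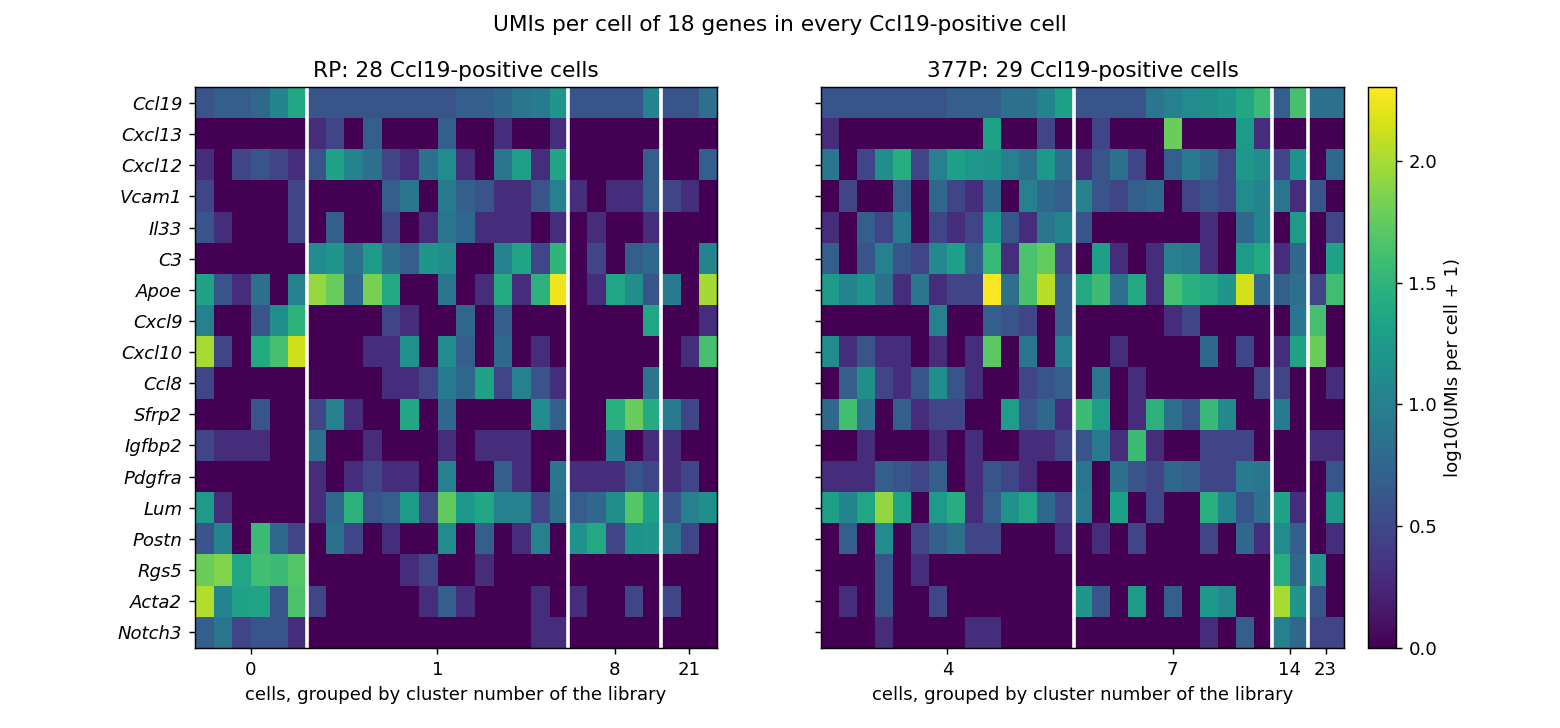
UMIs per cell of 18 genes (colour, log10 of UMIs + 1) in each of the 28 Ccl19-positive cells of RP (left) and the 29 of 377P (right), with white lines between the clusters of each library. Rgs5 and Acta2 fill all 6 cells of cluster 0 in RP, where C3 and Pdgfra are at 0, and Cxcl13 is found in 6 cells of RP and 7 of 377P.

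The Ccl19-positive cells did not form a cluster of their own. When the cells of each library were clustered over all genes, 14 of the 28 in RP fell in a cluster led by Igfbp5, Dcn, Has1, Mfap5 and C3. A further 6 fell in one led by Rgs5, Ccl11 and Tnc, 5 in one led by Gpx3, Sfrp2 and Col1a1, and 3 in one led by Prg4 and Vcan. In 377P, 14 of the 29 fell in a cluster led by Dpt, Has1 and Ptx3, and 11 in one led by Gpx3, Sfrp2 and Fmod. The last 4 were split between a cluster led by Rgs5 and Myh11 and one led by the gland genes Tff2 and Agr2. The cluster with the highest Ccl19 level over all its cells was the Rgs5-led one in RP, at 166.6 CPM, and the one led by Gpx3 and Sfrp2 in 377P, at 88.8 CPM.

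The gate was also clustered without the genes of the rule. In 377P, 16 of the 29 cells (55.2%, interval 35.7 to 73.6) fell in 1 of 14 clusters, which held 16.1% of the gate. The genes leading that cluster were Saa3, C4b, Csmd1, Cxcl12, C3 and Vcam1. A second cluster, led by Igfbp2, Mecom and Cxcl13, held 7 more in 6.16% of the gate. In RP the cells were spread over 7 of 19 clusters, and the leading cluster held 6 of 28 (21.4%, interval 8.30 to 41.0) in 11.9% of the gate. It was led by Gm16685, C4b, C3 and Cxcl12, and another cluster with 6 cells was led by Rgs5, Myh11 and Acta2. The intervals of the 2 leading shares overlapped, and at resolution 0.5 the shares were 46.4% in RP and 58.6% in 377P. Complement genes and Cxcl12 were among the genes leading both clusters.

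Ccl19-positive fibroblasts carried more RNA of interferon-induced chemokine, complement and class I antigen presentation genes, and of the lipid carrier Apoe, than Ccl19-negative fibroblasts, in both libraries. Of 1582 genes measured in both (those with at least 20 UMIs expected in the smaller class at the mean level), 88 were past 1.5-fold higher in both, which is 5.56%. A further 23, or 1.45%, were past 1.5-fold lower in both. Each count from a gene list, above and below, is to be read beside these 2 shares. That filter takes in genes through either class, and 35 of the 88 passed it only through their level in the Ccl19-positive cells, where they are high. Of the 14 higher genes named by rank, 7 passed in that way. With the same minimum on the Ccl19-negative level alone, a setting chosen after seeing the data, 53 of 1585 genes (3.34%) were higher in both and 44 (2.78%) lower in both. The median log2 ratio over all measured genes was 0.05 in RP and 0.0026 in 377P. With any size of difference, 507 genes were higher in both libraries and 412 lower in both, and 17 were past 1.5-fold in opposite directions. Taken alone, RP had 233 of 1647 genes past 1.5-fold higher (14.1%) and 137 lower (8.32%), and 377P had 230 of 2043 higher (11.3%) and 168 lower (8.22%). With the Ccl19-negative cells weighted to the cluster mix of the Ccl19-positive cells, 49 genes were higher and 13 lower in both libraries. Without the single cell with most UMIs of each gene, the counts were 55 higher and 78 lower.

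**Figure D2:**
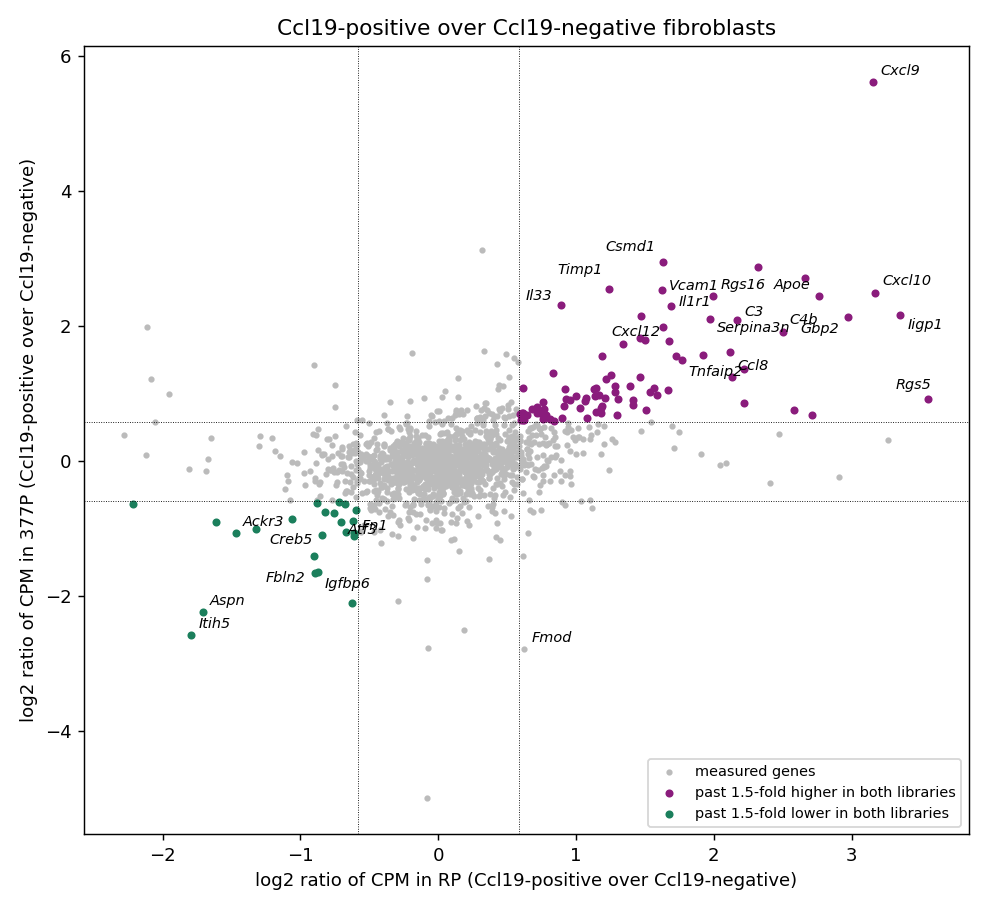
Log2 ratio of CPM in Ccl19-positive over Ccl19-negative fibroblasts, in RP (horizontal axis) and 377P (vertical axis), for the measured genes, with dotted lines at 1.5-fold. The 88 genes higher in both libraries are in the upper right, with Cxcl9 highest in 377P and Rgs5 highest in RP, and the 23 lower in both are in the lower left.

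Interferon-induced genes were among those with the highest folds. Of 25 listed genes 5 were measured, and 4 were past 1.5-fold higher in both libraries with none lower. Of the 4, Cxcl9, Gbp2 and Iigp1 passed the filter only through their level in the Ccl19-positive cells, so the count and the list's median log2 ratio of 3.16 in RP and 2.17 in 377P carry that selection. On the Ccl19-negative level alone, 2 of the 25 were measured and Cxcl10 was higher in both. Cxcl9 was at 485 CPM in Ccl19-positive and 54.4 CPM in Ccl19-negative cells of RP, a fold of 8.93 (7.03 to 11.2). Ccl19-positive cells of 377P had 335 CPM and Ccl19-negative cells 6.80 CPM, a fold of 49.3 (30.2 to 83.4). Per cell, the lowest, median and highest Cxcl9 counts were 0, 0 and 30 UMIs in RP and 0, 0 and 41 in 377P. It was found in 10 of 28 cells in RP and 9 of 29 in 377P, and without the cell of highest count in 377P the fold there was 22.5. That cell held 41 of the 73 Cxcl9 UMIs and 60 of the 177 Cxcl10 UMIs of the class in 377P. It lay in the cluster led by gland genes, with 7 UMIs of Dcn, 15 of Rgs5 and 0 of Pdgfra. In RP, 55 of the 90 Cxcl9 UMIs were in the 6 cells of the Rgs5-led cluster, and without that cluster the fold there was 4.57.

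Cxcl10 was at 2039 CPM in Ccl19-positive and 227 CPM in Ccl19-negative cells of RP, a fold of 8.99 (8.02 to 10.0). The levels in 377P were 812 CPM in Ccl19-positive and 144 CPM in Ccl19-negative cells, a fold of 5.65 (4.73 to 6.73). It was found in 14 of 28 cells in RP and 16 of 29 in 377P, with highest counts of 134 and 60 UMIs. A few cells thus held most of it: of the 378 UMIs in RP, 298 were in the 6 cells of the Rgs5-led cluster, and without that cluster the fold in RP was 2.61. Gbp2, an interferon-induced GTPase, had folds of 7.86 (6.17 to 9.92) in RP and 4.41 (3.03 to 6.29) in 377P, and Iigp1, another, 10.2 (7.91 to 13.0) in RP and 4.50 (3.12 to 6.36) in 377P. Without the Rgs5-led cluster these were 5.44 for Gbp2 and 5.95 for Iigp1 in RP. Irf1, the fifth gene measured, had folds of 1.91 in RP and 1.18 in 377P.

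Most measured complement genes were higher in both libraries. Of 15 listed genes 6 were measured and 5 were past 1.5-fold higher in both, with a median log2 ratio of 1.53 in RP and 1.44 in 377P. Of the 5, C4b and Cfb passed the filter only through their level in the Ccl19-positive cells. The count and the medians carry that selection. On the Ccl19-negative level alone, 4 were measured and 3 of them, C3, C1s1 and Serping1, were higher in both. C3, the central complement protein, was at 928 CPM in Ccl19-positive and 206 CPM in Ccl19-negative cells of RP, a fold of 4.49 (3.82 to 5.26). In 377P the Ccl19-positive cells had 1368 CPM and the Ccl19-negative cells 321 CPM, a fold of 4.26 (3.73 to 4.85). Its counts per cell ran over 0, 3 and 31 UMIs (lowest, median, highest) in RP and 0, 4 and 56 in 377P. C4b, which forms part of the C3 convertase, had folds of 5.65 (4.43 to 7.12) in RP and 3.78 (3.0 to 4.73) in 377P. Cfb had folds of 3.10 in RP and 3.97 in 377P, C1s1, a protease of the first complement complex, 2.67 in RP and 1.78 in 377P, and its inhibitor Serping1 2.0 in RP and 1.96 in 377P. No listed complement gene was past 1.5-fold lower in both.

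Of 19 listed lipid and retinoid genes 5 were measured, of which Apoe and Rarres2, which encodes chemerin, were past 1.5-fold higher in both libraries and Apod, another lipid carrier, lower in both. Rarres2 had folds of 2.62 in RP and 2.16 in 377P, and Apod 0.661 in RP and 0.608 in 377P. Apoe, a lipid carrier that macrophages and fibroblasts secrete, was at 3549 CPM in Ccl19-positive and 522 CPM in Ccl19-negative cells of RP, a fold of 6.79 (6.25 to 7.38). Ccl19-positive cells of 377P had 3736 CPM and Ccl19-negative cells 685 CPM, a fold of 5.45 (5.03 to 5.91). Every Ccl19-positive cell of 377P had at least 1 Apoe UMI, with a median of 10 and a highest count of 193, and 22 of 28 did in RP, with a median of 6.5 and a highest count of 174. Among Ccl19-negative cells 1039 of 1459 in RP and 443 of 609 in 377P had one too. In the Ccl19-positive cells 1 cell held 26.4% of the Apoe UMIs in RP and 1 cell 23.7% in 377P. The 9 listed macrophage markers summed to 302 CPM in Ccl19-positive and 307 CPM in Ccl19-negative cells of RP. In 377P they summed to 41.3 CPM and 101 CPM. None of them had enough UMIs to count as measured in both libraries, and both classes were required to have no Ptprc UMI. At 0 in the Ccl19-positive cells were Csf1r, Adgre1, Cd68 and Mrc1 in RP, and C1qa, C1qb, Csf1r, Adgre1 and Mrc1 in 377P. Whether Apoe RNA came from macrophages was not tested.

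Chemokines beyond the rule also stood higher. Of 12 listed lymphoid chemokine genes 4 were measured besides Ccl19, and 3 were past 1.5-fold higher in both libraries, of which Ccl8 passed the filter only through its level in the Ccl19-positive cells. Cxcl12, which retains haematopoietic cells in stroma through Cxcr4, was at 674 CPM in Ccl19-positive and 211 CPM in Ccl19-negative cells of RP, a fold of 3.20 (2.64 to 3.84). The levels in 377P were 1042 CPM in Ccl19-positive and 304 CPM in Ccl19-negative cells, a fold of 3.43 (2.95 to 3.96). Cells with a Cxcl12 UMI were 71.4% and 48.5% of the 2 classes in RP, and 89.7% and 47.3% in 377P, against 9.90% of keratinocytes in RP and 14.6% in 377P. Ccl8, a monocyte attractant, had folds of 4.33 (3.28 to 5.64) in RP and 3.07 (2.3 to 4.05) in 377P, and Ccl11, the eosinophil attractant eotaxin, 5.99 (5.17 to 6.92) in RP and 1.70 (1.36 to 2.09) in 377P. Of the Ccl11 UMIs in RP, 139 were in the 6 cells of the Rgs5-led cluster and 75 outside it, and without that cluster the fold in RP was 2.91. Ackr3, the decoy receptor that takes up Cxcl12, was lower, with folds of 0.361 (0.192 to 0.619) in RP and 0.477 (0.309 to 0.703) in 377P. Cxcl14 went opposite ways, with a fold of 0.535 in RP and 2.69 in 377P.

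Antigen presentation by class I followed the same direction. All 4 measured genes of 11 listed were past 1.5-fold higher in both: H2-K1 with folds of 2.43 in RP and 2.15 in 377P, H2-D1 with 2.10 in RP and 1.90 in 377P, B2m with 3.01 in RP and 1.98 in 377P, and the peptide loading factor Tapbp with 1.61 in RP and 1.71 in 377P. Tapbp passed the filter only through its level in the Ccl19-positive cells. On the Ccl19-negative level alone 3 were measured, and all 3 were higher in both. Without the Rgs5-led cluster H2-D1 had a fold of 1.40 in RP. The class II genes Cd74 and H2-Aa, which leukocytes carry, had folds of 1.0 and 0.96 in RP and 0.73 and 0.91 in 377P. Of 19 cytokine receptor and signal genes listed, 8 were measured and 3 were higher in both. These were Il1r1, the receptor of interleukin 1, with folds of 3.23 (2.49 to 4.13) in RP and 4.94 (4.04 to 6.0) in 377P, Il11ra1 with 2.24 in RP and 1.97 in 377P, and Osmr, the oncostatin M receptor, with 1.70 in RP and 1.84 in 377P. Among 9 measured genes of the NF-kappaB pathway, none was past 1.5-fold in both libraries in either direction. Nfkbia, a feedback inhibitor of that pathway, had a fold of 1.45 in each library.

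Inflammatory fibroblast genes were less uniform: of 11 measured, Il6 and Ccl7 were past 1.5-fold higher in both and none was lower in both. Of all measured genes 5.56% were higher in both. Ccl7 had folds of 1.75 in RP and 1.54 in 377P, and 1.44 in each library without the Rgs5-led clusters. Il6 had folds of 4.38 (3.65 to 5.24) in RP and 2.36 (1.91 to 2.89) in 377P, while Ccl2 had 1.14 in RP and 0.97 in 377P. Serpina3n, a serine protease inhibitor of acute inflammation, had folds of 3.92 (2.84 to 5.31) in RP and 4.30 (3.39 to 5.40) in 377P, and Tnfaip2, a TNF-induced gene, 3.40 (2.82 to 4.08) in RP and 2.82 (2.34 to 3.38) in 377P. Csmd1, which encodes a large membrane protein with complement control domains, had 3.09 (2.65 to 3.60) in RP and 7.71 (6.81 to 8.71) in 377P. Timp1, an inhibitor of matrix metalloproteinases, had 2.37 (1.93 to 2.87) in RP and 5.87 (5.18 to 6.65) in 377P, and was the only 1 of 12 measured matrix protease and inhibitor genes past 1.5-fold in both. Rgs16, a regulator of G protein signalling, had 3.98 (2.89 to 5.38) in RP and 5.43 (4.08 to 7.14) in 377P, but 1.10 in RP without the Rgs5-led cluster.

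Genes of ligament and dense matrix were lower or mixed. Aspn, a small proteoglycan of periodontal ligament, was at 183 CPM in Ccl19-positive and 599 CPM in Ccl19-negative cells of RP, a fold of 0.306 (0.212 to 0.428). In 377P the Ccl19-positive cells had 156 CPM and the Ccl19-negative cells 734 CPM, a fold of 0.213 (0.147 to 0.298). Itih5, which binds hyaluronan, had folds of 0.288 (0.132 to 0.549) in RP and 0.167 (0.072 to 0.331) in 377P. The elastic fibre protein gene Fbln2 had 0.537 in RP and 0.316 in 377P, and the fibronectin gene Fn1 0.655 in RP and 0.477 in 377P. Igfbp6 had 0.546 in RP and 0.319 in 377P, and the transcription factor genes Creb5 and Atf3 had 0.558 and 0.613 in RP and 0.469 and 0.537 in 377P. Of 11 measured ligament and tendon genes, Aspn and Vcan were past 1.5-fold lower in both libraries and Col14a1 higher. Their median log2 ratio was 0.19 in RP and -1.41 in 377P. Postn, which encodes periostin, had a fold of 0.95 in RP and of 0.30 in 377P, and Thbs4 had 0.948 in RP and 0.0312 (0.0064 to 0.0915) in 377P, on 3 UMIs there. When the keratin term was dropped, so that keratin-rich barcodes entered both classes, Fbln2, Fn1 and Igfbp6 were no longer lower in either library, nor Ackr3 in 377P.

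A few collagen genes were higher. Of 12 measured collagen genes outside the rule, 4 were past 1.5-fold higher in both libraries and none lower. Of all measured genes 5.56% were higher in both. Among the 4, Col15a1 passed the filter only through its level in the Ccl19-positive cells. Col3a1, a fibrillar collagen of soft tissue, had a fold of 1.52 in each library, Col4a1, a basement membrane collagen, 1.67 in RP and 1.63 in 377P, Col14a1 1.51 in RP and 1.62 in 377P, and Col15a1 2.19 in RP and 2.10 in 377P. Without the Rgs5-led clusters Col14a1 had 1.41 in RP, Col3a1 1.45 in 377P and Col4a1 1.40 in 377P. Genes of the fibrillar collagens V and XI had no common direction: Col5a2 had folds of 1.25 in RP and 1.45 in 377P, Col5a1 1.20 in RP and 0.849 in 377P, Col5a3 1.46 in RP and 0.789 in 377P, and Col11a1 1.14 in RP and 0.177 in 377P. Eln, which encodes elastin, had 1.88 in RP and 1.77 in 377P and was the only 1 of 21 measured matrix assembly genes higher in both, though at 1.46 in 377P without the Rgs5-led cluster there. A count of 1 in 21 is near the 5.56% of all measured genes. Of 8 measured genes of the insulin-like growth factor system, Igfbp4 and Igfbp7 were higher in both, with folds of 2.28 in RP and 1.77 in 377P for Igfbp4 and of 2.66 in RP and 1.87 in 377P for Igfbp7. Igf1, with 0.63 in RP and 0.64 in 377P, was lower along with Igfbp6. Sfrp1 was the only 1 of 5 measured Wnt and BMP antagonists past 1.5-fold in both, with 1.56 in RP and 1.60 in 377P. It passed the filter only through its level in the Ccl19-positive cells.

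**Figure D3:**
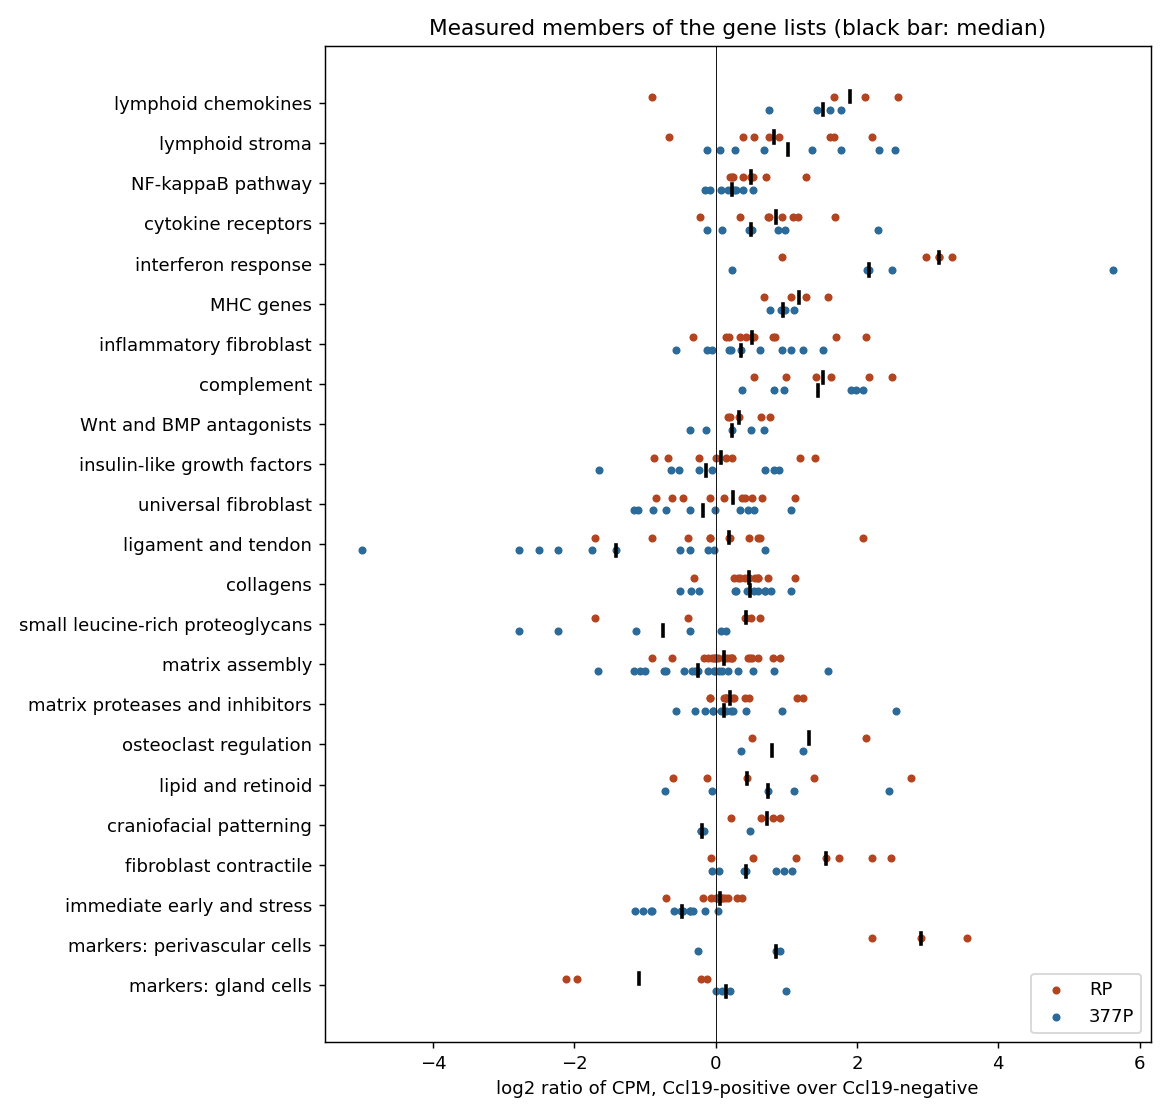
Log2 ratio of CPM in Ccl19-positive over Ccl19-negative fibroblasts for each measured gene of the gene lists (points; RP above 377P in each row), with a black bar at each list's median. The interferon list has the highest medians, 3.16 in RP and 2.17 in 377P, and ligament and tendon genes have a median of -1.41 in 377P.

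Contractile and perivascular genes moved with the class, and in RP this came through a few cells. The 10 perivascular markers summed to 3581 CPM in Ccl19-positive and 646 CPM in Ccl19-negative cells of RP, and to 1483 CPM and 940 CPM in those of 377P, with none of the 10 at 0. Rgs5, a pericyte gene, had a fold of 11.8 (10.3 to 13.4) in RP and 1.88 (1.37 to 2.53) in 377P, and Acta2, the smooth muscle actin gene, 4.65 in RP and 1.81 in 377P. In RP, 277 of the 281 Rgs5 UMIs lay in the 6 cells of the Rgs5-led cluster. Those 6 cells had 36 Dcn UMIs in all, and none of Pdgfra, C3 or Cxcl13. Without that cluster the folds in RP were 0.62 for Rgs5, 0.61 for Acta2, 0.79 for Tagln and 0.71 for Tpm1. By contrast the folds of C3, at 5.80, Apoe, at 8.35, and Cxcl12, at 3.89, were larger in RP without it. In 377P perivascular genes stayed higher outside the Rgs5-led cluster. Acta2 was at 379 CPM in the 27 Ccl19-positive cells there and 190 CPM in Ccl19-negative cells, with a UMI in 10 of the 27. Notch3 was at 60.6 and 11.4 CPM, with a UMI in 7 of the 27, and Rgs5 at 96.0 and 23.4 CPM, in 3.

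Gate cells with 1 or 2 Ccl19 UMIs stood between the Ccl19-negative and the Ccl19-positive cells for some genes and not for others. Of the 14 named higher genes, 10 had an interval above that of the cells with none in both libraries. In RP, C3 was at 206 CPM in the 1459 cells with no Ccl19 UMI, 612 CPM in the 120 cells with 1 to 2 and 928 CPM in the 28 cells with 3 or more. The 609, 76 and 29 cells of 377P had 321, 894 and 1368 CPM. Apoe was at 522, 1371 and 3549 CPM in RP and 685, 1132 and 3736 CPM in 377P. Cxcl12 was at 211, 639 and 674 CPM in RP and 304, 599 and 1042 CPM in 377P. For C3 and Apoe every step was upward and the intervals of neighbouring groups did not overlap, whereas the upper pair of Cxcl12 intervals overlapped in RP. All these intervals cover counting error and not the spread between cells. A single Ccl19-positive cell held 26.4% of the Apoe UMIs in RP, and another 23.7% in 377P. Cxcl13 did not follow: cells with 1 to 2 UMIs of Ccl19 had 9.6 CPM in RP and 19.7 CPM in 377P, with intervals that overlapped those of the cells with none. The interferon-induced chemokines did not follow in RP, where Cxcl10 was at 227, 230 and 2039 CPM and Cxcl9 at 54.4, 40.1 and 485 CPM. In 377P Cxcl10 was at 144, 428 and 812 CPM and Cxcl9 at 6.80, 15.3 and 335 CPM, and of these lower pairs the intervals of Cxcl9 overlapped.

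**Figure D4:**
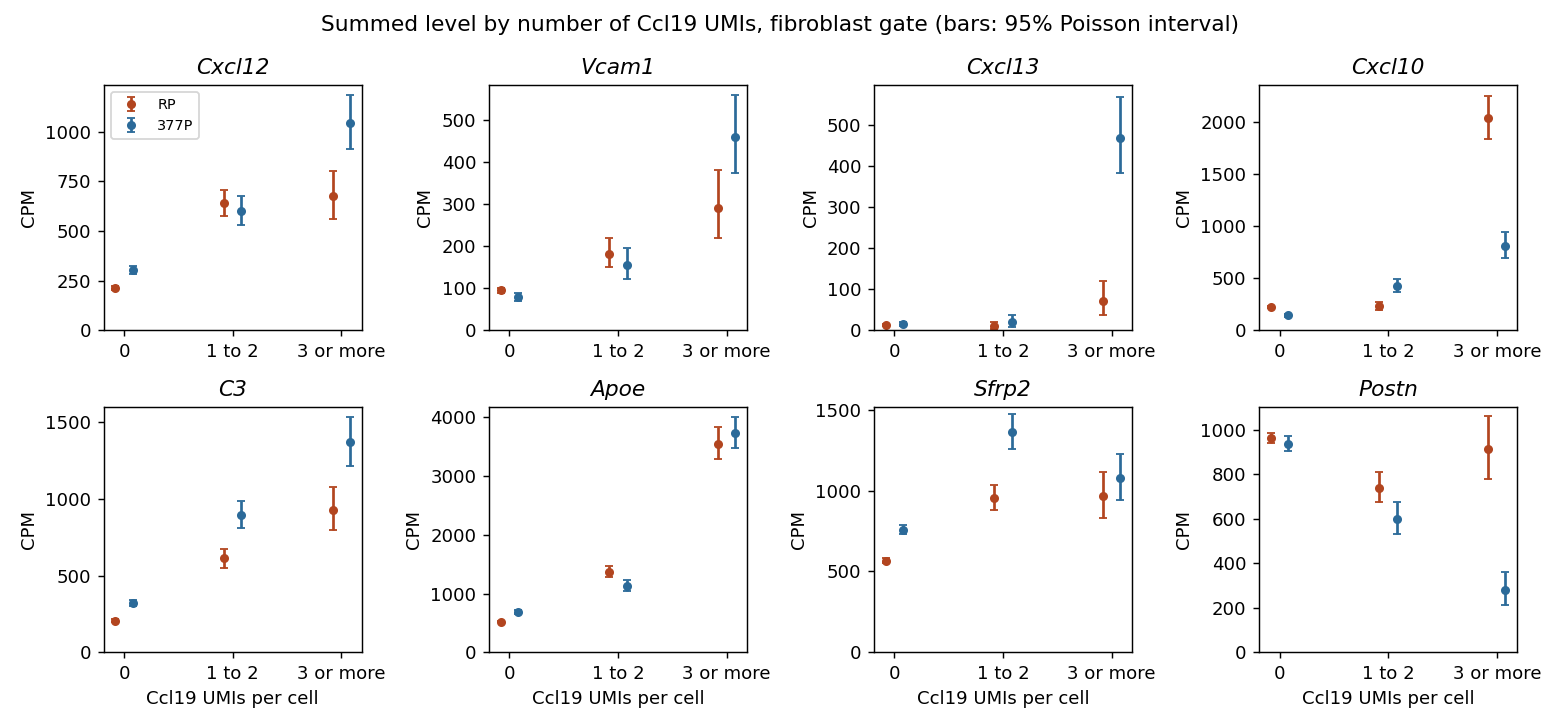
CPM of 8 genes in fibroblast gate cells with 0, 1 to 2, and 3 or more Ccl19 UMIs (points, with 95% Poisson intervals), RP left of 377P in each group. C3, Apoe and Vcam1 step upward in both libraries, Cxcl13 stands apart only at 3 or more, and Postn is at 911 CPM in RP and 280 CPM in 377P at 3 or more.

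Cells with more UMIs are more likely to reach 3 of Ccl19, and the Ccl19-positive cells were deeper than the Ccl19-negative ones, so shares of cells were also taken after thinning each cell to 3000 UMIs. This left out 1 Ccl19-positive and 393 Ccl19-negative cells of RP, and 0 and 127 of 377P. C3 was then found in 55.6% of Ccl19-positive and 31.1% of Ccl19-negative cells of RP and in 72.4% and 34.9% of those of 377P, against 59.3% and 42.3%, and 82.8% and 45.0%, in the same cells before thinning. Vcam1 was found in 37.0% and 15.7% in RP and in 55.2% and 12.9% in 377P after thinning, and in 59.3% and 25.1%, and 75.9% and 19.3%, before. Apoe was found in 66.7% and 55.5% in RP and in 86.2% and 57.7% in 377P after thinning. Before thinning the shares were 77.8% and 75.7% in RP, and 100% and 77.4% in 377P. Sfrp2, at 37.0% and 40.3% in RP and 51.7% and 38.8% in 377P after thinning, had no common order.

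RP and 377P differed in what their Ccl19-positive cells carried. Of 1660 genes measured in these cells, 176 (10.6%) were past 1.5-fold higher in RP and 196 (11.8%) higher in 377P. Each fold rests on 28 cells against 29 cells of 1 library each. The 6 leading genes higher in RP are named. Rgs5 was at 1515 CPM in RP and 230 CPM in 377P, a fold of 6.60 (4.87 to 9.11). Gpx3, an extracellular glutathione peroxidase, was at 356 CPM and 68.9 CPM, a fold of 5.17 (2.92 to 9.75), and Postn at 911 CPM and 280 CPM, a fold of 3.26 (2.42 to 4.44). Tnc, a matrix glycoprotein of loaded tendon and wounds, had a fold of 3.64 (2.55 to 5.28), Gadd45g, a stress response gene, 3.07 (2.32 to 4.11), and Isg15, an interferon-induced ubiquitin-like protein, 4.99 (2.27 to 12.5).

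The RP over 377P folds of the same genes in the Ccl19-negative cells were 1.03 for Postn, 0.795 for Gpx3, 1.06 for Rgs5 and 0.841 for Tnc. Without the Rgs5-led clusters the folds in Ccl19-positive cells were 0.295 for Rgs5, 0.875 for Tnc and 0.700 for Isg15, so these 3 turned, while Gpx3, at 6.79, Postn, at 3.52, and Gadd45g, at 2.82, stayed higher in RP. Single cells weighed on some of them: 1 cell of RP held 57.6% of the Gpx3 UMIs there.

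Higher in 377P were Saa3, Pde10a, Cxcl14, Fst, Cxcl13 and Olfr1033. Saa3, an acute phase protein gene, had 0 UMIs in RP and 240 in 377P, all of them in 1 cell. Fst, which encodes the activin antagonist follistatin, was at 59.3 CPM in RP and 496 CPM in 377P, a fold of 0.12 (0.058 to 0.223), and was found in 9 of 28 and 19 of 29 cells. Its fold in the Ccl19-negative cells was 0.536. Cxcl14 was at 91.7 CPM in RP and 762 CPM in 377P, a fold of 0.12 (0.068 to 0.199), against 0.605 in the Ccl19-negative cells. Pde10a, a cyclic nucleotide phosphodiesterase gene, had a fold of 0.074 (0.023 to 0.181), and Cxcl13 one of 0.150 (0.077 to 0.268). Ccl19 itself, which the rule used, was at 809 CPM in RP and 1189 CPM in 377P. Apoe had a fold of 0.950 (0.856 to 1.05), so its level in these cells differed little between the libraries.

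Pi16-positive and Pcsk2-positive fibroblasts without Ccl19, 1243 and 79 cells in RP and 559 and 67 in 377P, give a further setting for the leading genes. Cxcl9 was at 485 CPM in the Ccl19-positive cells of RP, 24.9 CPM in Pi16-positive and 4.99 CPM in Pcsk2-positive cells, and at 335, 5.78 and 2.58 CPM in those of 377P. Vcam1 was at 291, 60.0 and 74.8 CPM in RP and 459, 63.0 and 49.0 CPM in 377P. Apoe was at 3549, 587 and 1048 CPM in RP and 3736, 497 and 606 CPM in 377P. For these 3 genes the Ccl19-positive cells were highest of the 3 classes in both libraries. Igfbp4 was not: its 1758 CPM in Ccl19-positive cells of RP and 2061 CPM in those of 377P stood beside 1744 and 2052 CPM in Pi16-positive cells. Ccl7, at 1068 and 1290 CPM in Ccl19-positive cells, was at 1110 and 1355 CPM in Pi16-positive cells of RP and 377P.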

How the data were processed

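Per the file headers, the deposited matrices were written by Cell Ranger 7.0.1 and hold raw UMI counts per gene and barcode, with no normalisation. The submitters' processing notes list the mm10 genome build, Cell Ranger and STAR. Which gene annotation was used, and whether intronic reads counted, is not stated in them. Total counts were 120909095 UMIs in RP and 127094166 in 377P.

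From there, UMIs were summed over cells and divided by the class total (CPM), with exact Poisson intervals for levels, exact intervals of a ratio of Poisson counts for folds, and Clopper-Pearson intervals for shares (SciPy 1.17.1). No test was made. A gene was called past 1.5-fold by the ratio alone. Doublets were scored per library with Scrublet (Scanpy 1.11.5, expected doublets set to 12%), which called 569 barcodes in RP and 836 in 377P, and they were removed only as an alternative. Clusters were Leiden clusters (igraph 0.11.9, resolution 1) per library: of all passing barcodes from 3000 variable genes and 40 components, and of the gate from 2000 variable genes without the rule's genes and 30 components. Keratinocytes and leukocytes, used for comparison, were gated on their own markers.

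Named genes were measured, past 1.5-fold and at 50 CPM or more in the higher class, ranked by the interval bound nearest to 1 in the weaker library: the first 14 higher, 8 lower and 6 in each direction between libraries. Rule genes, mitochondrial, ribosomal, haemoglobin, immunoglobulin, predicted and sex-linked genes were left out, as were genes under 20% of their highest CPM in any cluster of 50 or more cells. Other genes come from 36 lists of 484 genes, all found in the files. The cells, lists and settings were chosen with earlier results of these data known. Coordinates are GENCODE vM21 (32235 of 32285 genes matched) and promoters RefSeq (GRCm38.p6). Of the steps, only the gene-wise folds and intervals were tested on simulated counts, which were drawn without variation between cells. Other thresholds, depths, filters, scalings, references and resolutions were tried.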

Additional observations from a re-analysis of the deposited data

Results flagged for a closer look

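Of the named and listed genes, 4 stood past 1.5-fold in opposite directions in the libraries when Ccl19-positive cells were set against Ccl19-negative cells. Whether the libraries differ in this was not tested, since each has 1 sample. Fmod, the ligament proteoglycan fibromodulin, had a fold of 1.54 in RP and 0.145 in 377P, on 31 and 17 UMIs in the Ccl19-positive cells. Gadd45g had 1.57 in RP and 0.477 in 377P. Cxcl14 had 0.535 in RP and 2.69 in 377P, where 1 cell held 47.0% of its UMIs. Muc5b, the mucin of gland cells, had 0.258 in RP and 2.0 in 377P, where 1 cell held 51.0% of its UMIs. The 9 gland markers summed to 11342 CPM in Ccl19-positive and 35752 CPM in Ccl19-negative cells of RP, and to 6206 CPM and 4511 CPM in those of 377P.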

How the results depend on the processing

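No paired analysis was possible because each title has 1 library and the labels give no replicate numbers. Of 676 values of the named genes under the alternatives, 10 changed direction, and of 650 values past 1.5-fold, 618 stayed past it on the same side. With a Ccl19 minimum of 2 UMIs the share of the gate was 2.86% in RP and 6.30% in 377P, with 5 UMIs 0.560% and 1.96%, and after thinning to 3000 UMIs 0.751% and 2.07%. Genes higher and lower in both libraries numbered 35 and 9 with the minimum of 5 UMIs, 49 and 13 with Ccl19-negative cells weighted to the same clusters, 37 and 5 with a filter of 50 UMIs, and 7612 and 763 with no filter. Between libraries, 83 genes were higher in RP and 47 in 377P with 5 UMIs, 48 and 37 with the 50 UMI filter, and 4046 and 3641 with none. The leading gate cluster held 46.4% of the cells in RP at resolution 0.5 and 27.6% in 377P at resolution 2. Creb5 had a fold of 1.08 in 377P with 2 UMIs, and Itih5 1.22 in RP with the weighting.

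Of the alternatives chosen after seeing the data, the filter on the Ccl19-negative level alone gave 53 genes higher and 44 lower in both libraries, since it admits no gene through its Ccl19-positive level. Dropping the keratin term gave 29 cells in RP and 51 in 377P, with 373 genes higher and 120 lower. The Ccl19-negative cells then take in barcodes rich in keratin. Folds turned to 1.54 for Ackr3 in 377P, 0.964 for Igfbp2 in RP and, in RP and 377P, 1.04 and 1.05 for Igfbp6, 1.0 and 1.88 for Fbln2, and 1.22 and 2.05 for Fn1. Without the Rgs5-led cluster 11 genes were lower in both and 128 were higher in 377P, and the RP over 377P folds of Rgs5, Tnc and Isg15 were 0.295, 0.875 and 0.700. Without each gene's top cell 55 genes were higher and 78 lower in both. That cell was left out of the Ccl19-positive class alone, so the setting tends to lower the Ccl19-positive level. The causes of the other changes were not tested. The 185424 UMIs of RP and 217865 of 377P limit genes of low level.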

Other observations

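T or NK cell and B or plasma cell markers had few UMIs in the Ccl19-positive fibroblasts of both libraries, and both fibroblast classes were required to have no Ptprc UMI. The T or NK cell markers had 2 UMIs in RP and 8 in 377P, and the B or plasma cell markers 15 and 41. Except for the last, these counts are too few to order the classes. The 9 T or NK cell markers summed to 10.8 CPM in Ccl19-positive and 19.8 CPM in Ccl19-negative cells of RP, and to 36.7 CPM and 45.1 CPM in those of 377P, with Cd3e, Nkg7 and Lef1 at 0 in the Ccl19-positive cells of both libraries. The 9 B or plasma cell markers summed to 80.9 CPM and 103 CPM in RP and to 188 CPM and 1859 CPM in 377P. The gate of 377P held a cluster of 8 cells led by Igkc, Ighg2b and Jchain, with no Ccl19-positive cell in it. Its part in the 1859 CPM was not tested. None of the 15 listed cell cycle genes had enough UMIs to count as measured. Immediate early and stress genes, all 12 of them measured, had a median log2 ratio of 0.06 in RP and -0.48 in 377P, and Fos had a fold of 1.02 in RP and 0.49 in 377P. The craniofacial patterning gene Prrx1 had folds of 1.76 and 1.40, and none of the 4 measured genes of its list was past 1.5-fold in both libraries.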
